A study of Mus musculus with 8 samples.

Results

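Potassium channel genes were compared between R6/2 and wild-type striatum, defined as all genes whose symbol in the platform annotation begins with Kcn. The 84 such genes, out of 18193 genes with a probe set of their own, were measured by 167 probe sets, and each gene is described by the brightest of its probe sets on average over the 8 arrays. R6/2 mice carry a transgene with the first exon of human huntingtin and an expanded CAG repeat, driven by the human huntingtin promoter, and are a model of Huntington's disease that expresses a fragment rather than the whole protein. Total RNA came from 4 R6/2 mice (numbered 64, 65, 70 and 78) and 4 wild-type mice (42, 48, 54 and 63), with 1 Affymetrix array per mouse. Every mouse was labelled as a female of 12 weeks (85 days) on a C57Bl/6 and CBA background, and the wild-type mice differ from the others by the absence of the transgene. The design text counts 5 wild-type mice, of which 4 were analysed here.

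Potassium channels let potassium leave the cell and so pull the membrane towards a negative voltage. Voltage-gated (Kv) channels shape the threshold, the repolarisation and the spacing of action potentials, inward rectifiers (Kir) hold the resting voltage, 2-pore channels carry leak currents, and other families open with calcium or sodium inside the cell. The projection neurons of the striatum, the medium spiny neurons, are known for a very negative resting voltage set by Kir channels and for slow A-type and Kv1 currents that delay their first spike. Pore-forming subunits assemble as tetramers (dimers for the 2-pore channels), and auxiliary subunits alter their gating and their transport to the membrane.

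Of the 84 genes, 16 were lower in R6/2 striatum and none was higher with limma at an adjusted p under 0.05, while over all genes 6.19% were lower and 9.09% higher. No Kcn gene had an unadjusted p under 0.05 in the upward direction. The largest fall was that of Kcnip2, an auxiliary subunit of Kv4 channels, to 50.9% of its wild-type level, and the Kv1 channel gene Kcna1, with the difference nearest 0 among those that passed, fell to 84.5%. The others that fell were Kcnh3, Kcnq5, Kcnj4, Kcnt1, Kcns2, Kcnq3, Kcna4, Kcnab1, Kcnip3, Kcnf1, Kcnh5, Kcna6, Kcnab2 and Kcna2. The R6/2 mean lay below the wild-type mean for 67 of the 84 genes, against 50.7% of all genes, and the median log2 difference (R6/2 minus wild-type) was -0.15 over the Kcn genes and -0.0034 over all genes.

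**Figure D1:**
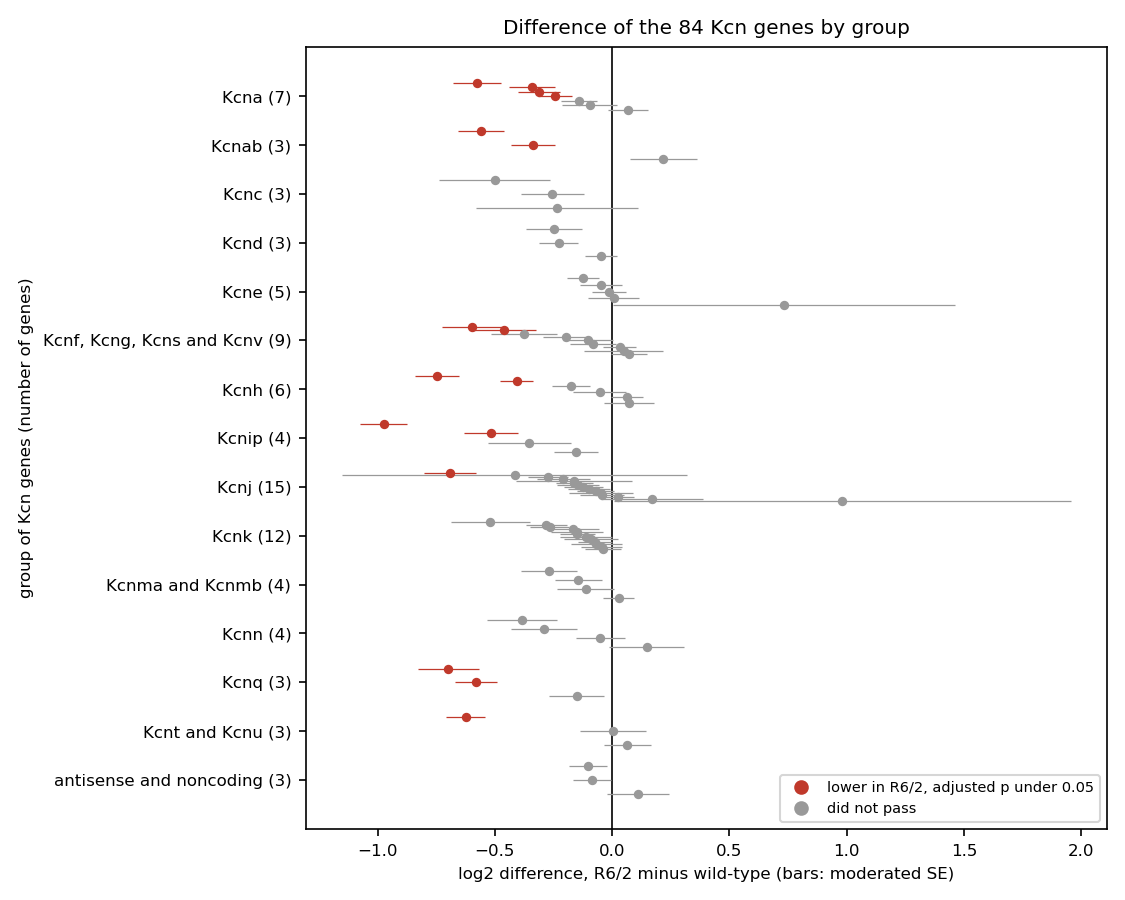
Log2 difference between R6/2 and wild-type striatum (x axis) for each of the 84 Kcn genes, arranged by group (y axis, number of genes in brackets), with the moderated standard error as a bar. The 16 red points passed an adjusted p of 0.05 and all lie left of 0, while the 2 points farthest to the right, Kcnj13 and Kcne2, have the widest bars on that side.

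All 4 R6/2 values lay below all 4 wild-type values in 18 Kcn genes (7.67% of all genes did so), and in none did they all lie above (11.7% of all genes). The 16 genes that passed included 15 of these 18, the exception being Kcnf1, and the other 3 were Kcnk1, Kcnj15 and Kcne3. Many Kcn probe sets were dim, which limits what could pass. Of the 36 genes whose probe set lay above the median level of all genes (6.27), 15 were called lower, against 9.45% of all genes above that level. Of the 48 at or below it 1 was called, against 2.94% of all genes there. In 6 genes (Kcnj15, Kcne3, Kcnmb4os1, Kcnj2, Kcnk15 and Kcnv2) both group means lay at or below 3.67, the highest value of 9 probe sets of the Y-linked genes Eif2s3y, Kdm5d and Uty in these female mice, so that nothing can be said about their transcripts. That level leaves out brighter Y-linked probe sets: over all 13 listed the highest value was 5.37, and 34 Kcn genes, the called Kcnh5 among them, had both group means at or below it. Some values are shared: in 41.3% of probe sets more than 1 array held the same value to the last deposited digit (61.8% in the dimmest 20% of probe sets, 16.0% in the brightest 20%). This touched 34 Kcn genes, none of them among the 16 that fell.

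**Figure D2:**
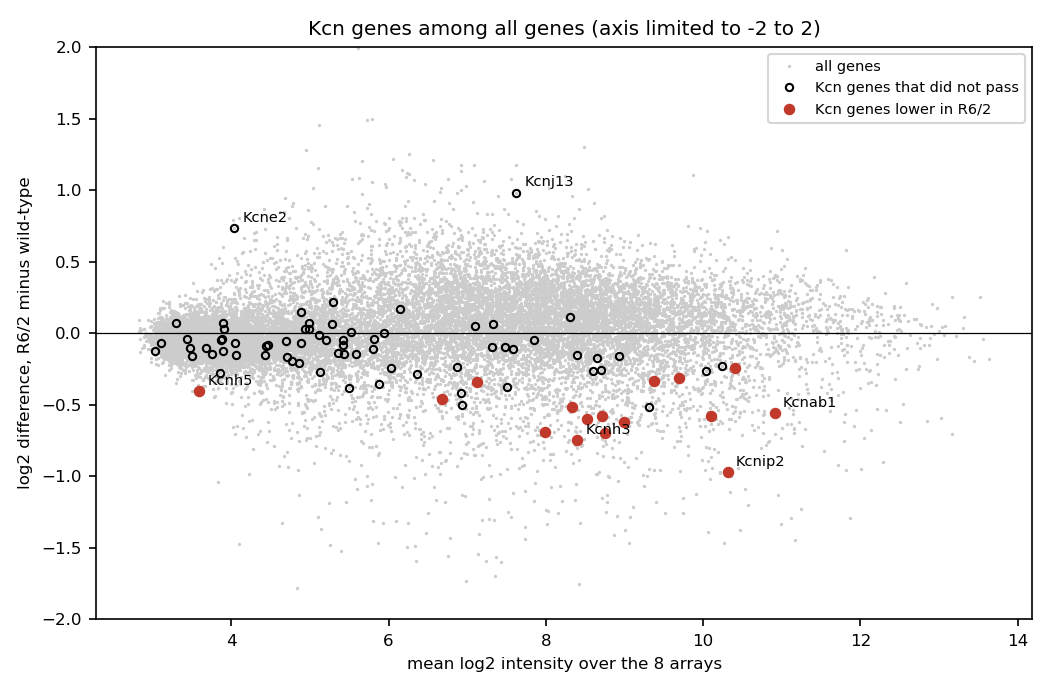
Log2 difference (y axis, limited to the range from -2 to 2) against the mean log2 intensity over the 8 arrays (x axis) for all genes (grey), the Kcn genes that did not pass (open circles) and the 16 that were lower (red). All red points except Kcnh5 lie to the right of the median level of 6.27.

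Array medians ranged from 5.08 to 5.13 and correlations between arrays from 0.983 to 0.994. The tissue label was borne out by its markers: 19 markers common to both kinds of medium spiny neuron had a mean level between 11.05 and 11.39 in wild-type and between 10.41 and 10.47 in R6/2 mice, and 16 of the 19 were lower in R6/2 mice. In bulk tissue, fewer cells of a type and less RNA per cell cannot be told apart. Markers of tissue outside the striatum varied between mice, and their part in the Kcn differences was examined only with the cortical level as a covariate. The 17 measured markers of cortical projection neurons averaged 7.62, 7.40, 6.72 and 7.55 in wild-type mice 42, 48, 54 and 63 and 7.22, 6.25, 6.79 and 6.39 in R6/2 mice 64, 65, 70 and 78, and 3 of the 17 were called lower. The 14 markers of ependyma and choroid plexus averaged 5.81 to 7.27 per wild-type mouse and 5.74 to 7.58 per R6/2 mouse (2 called lower and 1 higher). Of the other marker lists, 3 of 8 direct-pathway genes were lower (1 higher), 4 of 5 indirect-pathway genes, 6 of 14 endothelial and mural genes, 2 of 14 oligodendrocyte genes and 0 of 14 microglial genes. These marker counts stand against 6.19% of all genes lower and 9.09% higher, and 9.45% lower among genes above the median level. In none of the marker lists did any member lie at or below the Y-linked level of 3.67 in both groups. Several, such as Chrm4, Chat and Slc5a7, lay below 5.37, the highest of all Y-linked probe sets, in both. With the cortical level of each array as a covariate, 9 Kcn genes were called lower (2.72% of all genes were) and none higher. That level itself differed between the groups (mean 7.32 in wild-type and 6.67 in R6/2 mice), so the covariate overlaps with genotype. A call lost with it can therefore not be assigned to outside tissue. Lamp5, Mef2c and Tle4 of the cortical list were bright in every mouse (group means from 9.92 to 10.30).

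As examples of promoters of genes that fell, the 250 bases before the start of Kcnip2 and Kcnj4 are given. These genes had the largest falls among the Kcnip and the inward rectifier groups. The sequences run 5′ to 3′ and come from RefSeq (GRCm38.p6), both on the minus strand. GC boxes (GGGCGG on either strand) and the core of the cyclic AMP response element (TGACG on either strand) are in capitals.
Kcnip2, chr19:45816064-45816313: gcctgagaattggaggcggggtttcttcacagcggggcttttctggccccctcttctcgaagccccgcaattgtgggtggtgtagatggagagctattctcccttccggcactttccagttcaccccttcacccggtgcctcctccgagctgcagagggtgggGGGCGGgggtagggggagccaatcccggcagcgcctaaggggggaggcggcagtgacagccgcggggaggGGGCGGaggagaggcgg
Kcnj4, chr15:79505242-79505491: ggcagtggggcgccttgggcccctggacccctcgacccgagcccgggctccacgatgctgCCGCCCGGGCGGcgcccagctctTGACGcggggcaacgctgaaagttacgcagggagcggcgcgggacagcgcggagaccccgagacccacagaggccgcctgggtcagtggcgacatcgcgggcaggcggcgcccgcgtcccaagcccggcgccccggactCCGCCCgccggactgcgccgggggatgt
The promoter table matched 64 of the 84 Kcn genes and 11 of the 16 that fell, with 18 starts for these 11. A GC box was found in 7 of the 18 windows (38.9%) and in 32.7% of all 32851 windows in the table, a TGACG core in 4 of 18 (22.2%) and in 17.8%, and the letters TATAAA, on either strand, in 0 of 18 and in 12.4%. Over the 89 windows of all matched Kcn genes, called or not, the shares were 44.9% (GC box), 15.7% (TGACG) and 3.37% (TATAAA). These matches describe the letters in the windows and are not binding sites.

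**Figure D3:**
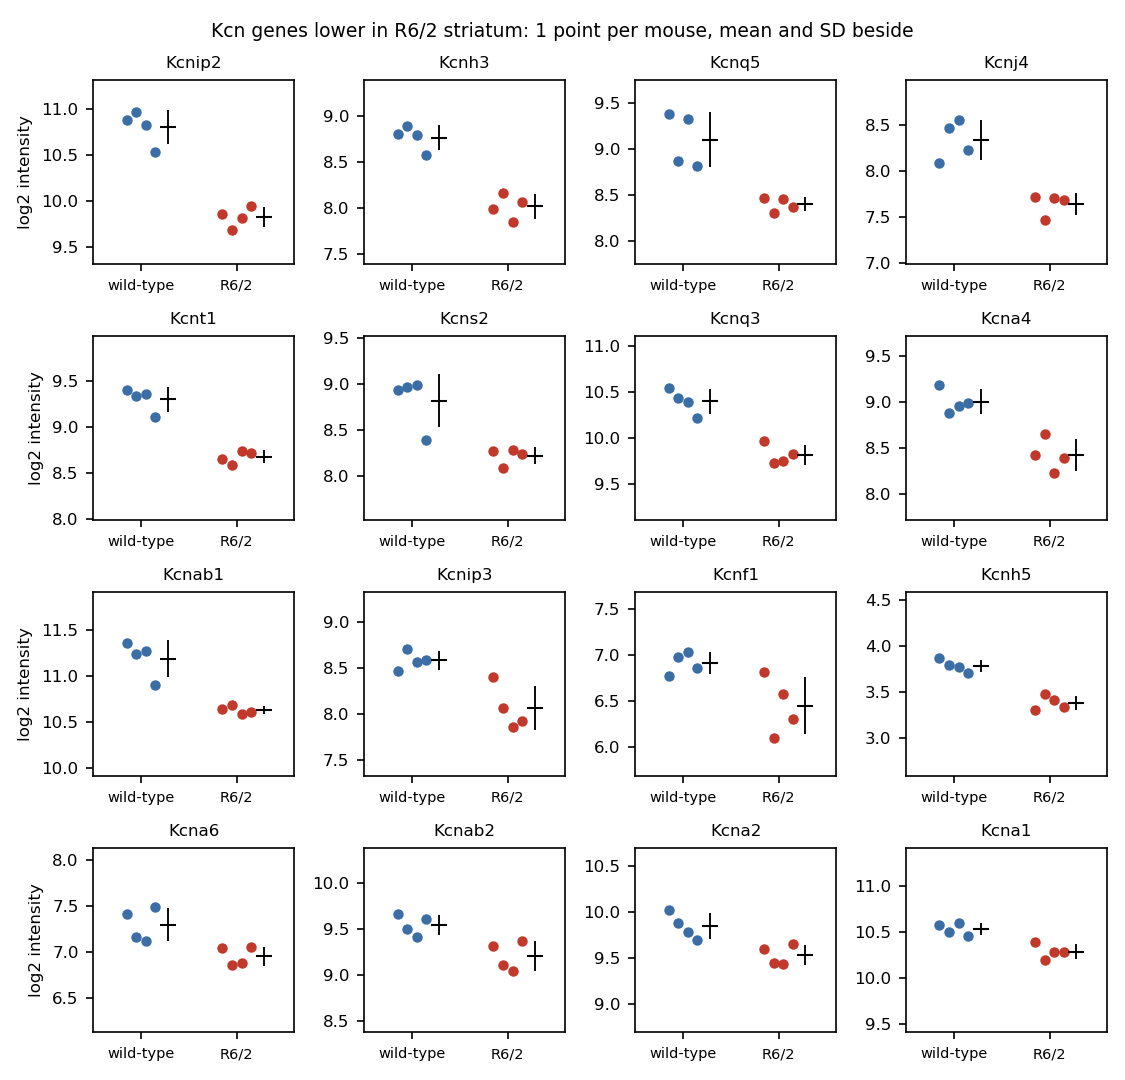
Log2 intensity (y axis, a range of 2 units in each panel) in each wild-type mouse (blue) and R6/2 mouse (red) for the 16 Kcn genes that fell, ordered by the size of the fall, with the mean and SD of each group in black. The groups are separate in every panel except that of Kcnf1, where R6/2 mouse 64 at 6.81 lies above wild-type mouse 42 at 6.78.

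Averaged over the 16 genes and set against the wild-type mean, wild-type mice 42, 48, 54 and 63 lay at 0.072, 0.023, 0.034 and -0.13 and R6/2 mice 64, 65, 70 and 78 at -0.46, -0.60, -0.58 and -0.53. The 16 genes were picked as lower in these same mice, so R6/2 averages below 0 follow from that choice. Wild-type mouse 63 was the lowest of its group in 10 of the 16 genes, and it also had the lowest wild-type level of the medium spiny neuron markers (11.05). The fit without it also called 16 Kcn genes lower, but not the same set, since Kcnd2 and Kcnk2 were then among them.

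Kv1 channels open near the spike threshold. Of their genes, 4 of 7 for pore-forming subunits (Kcna) and 2 of 3 for beta subunits (Kcnab) were called lower. Over all genes 6.19% were, and the counts of the other groups below stand against the same share. Kcna4, whose channels carry a rapidly inactivating A-type current, had log2 values of 9.19, 8.88, 8.96 and 8.99 in wild-type mice 42, 48, 54 and 63 and of 8.43, 8.66, 8.23 and 8.40 in R6/2 mice 64, 65, 70 and 78. The highest R6/2 mouse stayed below the lowest wild-type mouse, and the fall was 0.58 ± 0.10 on the log2 scale (SE, adjusted p = 0.00470), or 1.49-fold. Kcnab1, whose product confers fast inactivation on Kv1 channels, had values of 11.36, 11.23, 11.27 and 10.90 in wild-type and of 10.64, 10.68, 10.59 and 10.60 in R6/2 mice. The R6/2 mice lay close together (SD 0.042), with wild-type mouse 63 nearest to them, and the difference was -0.56 ± 0.098 (adjusted p = 0.00444). With the mean of its probe sets in place of the brightest it was -0.36 and not called (adjusted p = 0.0542).

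The other members of the group that passed did so by narrower margins. Kcna1, Kcna2 and Kcna6, which encode low-threshold Kv1 subunits found on axons, differed by -0.24 ± 0.072, -0.31 ± 0.090 and -0.34 ± 0.10 (adjusted p = 0.0445, 0.0407 and 0.0425), and Kcnab2, which promotes the transport of Kv1 channels to the membrane, by -0.34 ± 0.095 (adjusted p = 0.0364). Kcna1 went from 10.57, 10.50, 10.59 and 10.45 in wild-type to 10.39, 10.19, 10.28 and 10.29 in R6/2 mice. The groups of each of these 4 genes were separate by small margins, and each call was lost when any single one of 5 to 7 of the 8 mice was left out, at most to adjusted p = 0.103 (Kcna1, without wild-type mouse 54), 0.112 (Kcna2 and Kcna6, without R6/2 mouse 70) and 0.104 (Kcnab2, without R6/2 mouse 70). With the cortical level as a covariate their adjusted p was 0.237, 0.241, 0.371 and 0.286. With the mean of their probe sets Kcna2 and Kcnab2 were at -0.19 and -0.088 and not called (adjusted p = 0.0554 and 0.670). Kcna3, Kcna5, Kcna7 and Kcnab3 did not pass, with differences from -0.14 to 0.22.

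The Kv4 channels carry the A-type current of dendrites and cell bodies. Their largest difference at the brightest probe sets was in the auxiliary subunit gene Kcnip2. The auxiliary subunits did not move together, since Dpp6, given below, rose. Kcnip2 encodes a calcium-binding protein (KChIP) that brings Kv4 channels to the membrane and slows their inactivation. Its log2 values were 10.88, 10.97, 10.83 and 10.53 in wild-type mice 42, 48, 54 and 63 and 9.86, 9.69, 9.82 and 9.94 in R6/2 mice 64, 65, 70 and 78. The gap between the lowest wild-type and the highest R6/2 mouse exceeded the range within either group, and the mean fell from 10.80 ± 0.19 to 9.83 ± 0.10 (SD, n = 4 each, 1.97-fold, adjusted p = 0.000325). Kcnip3, also known as calsenilin or DREAM and able to act as a transcriptional repressor, went from 8.48, 8.71, 8.57 and 8.59 to 8.41, 8.07, 7.87 and 7.93. R6/2 mouse 64 lay just under the wild-type mice, and the difference was -0.52 ± 0.12 (adjusted p = 0.0145, against 0.148 with the cortical level as a covariate). With the mean of its probe sets it was -0.29 (adjusted p = 0.0917). Kcnip1 and Kcnip4 differed by -0.35 ± 0.18 and -0.15 ± 0.094 and did not pass (adjusted p = 0.214 and 0.312).

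Of the pore-forming Kv4 genes none passed at the probe set with the highest mean, but 2 other probe sets of Kcnd2, given below, were called lower. Kcnd2, the main Kv4 subunit of medium spiny neurons, had values of 10.42, 10.41, 10.45 and 10.16 in wild-type and of 10.12, 10.20, 10.05 and 10.14 in R6/2 mice. Wild-type mouse 63 fell among the R6/2 mice, and the difference of -0.23 ± 0.082 did not pass (adjusted p = 0.0886). Without that mouse it was -0.29 (adjusted p = 0.0236). Kcnd3 differed by -0.048 ± 0.068 (95% interval from -0.20 to 0.10) and Kcnd1 by -0.25 ± 0.12, and neither passed.

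Among 9 genes for electrically silent Kv subunits, which form no channel alone and modify Kv2 channels, Kcns2 and Kcnf1 fell. Kcns2 had values of 8.93, 8.96, 8.99 and 8.39 in wild-type and of 8.27, 8.09, 8.28 and 8.24 in R6/2 mice. Wild-type mouse 63 lay apart from the other wild-type mice and close to the R6/2 mice, and the difference was -0.60 ± 0.13 (adjusted p = 0.0119). With the cortical level as a covariate it was -0.64 and not called (adjusted p = 0.0605). Kcnf1 had values of 6.78, 6.98, 7.03 and 6.86 against 6.81, 6.10, 6.58 and 6.31. Its groups overlapped, and its difference of -0.46 ± 0.14 (adjusted p = 0.0467) was no longer called when any single one of 7 of the 8 mice was left out (at most adjusted p = 0.115, without R6/2 mouse 78) or with the cortical level as a covariate (-0.29, adjusted p = 0.368), nor with the mean of its probe sets (-0.25, adjusted p = 0.143). Kcnv1, also a silent subunit, differed by -0.38 ± 0.14 and did not pass (adjusted p = 0.101).

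In the Kcnh group of 6 genes, which holds the EAG, ERG and ELK channels, Kcnh3 and Kcnh5 fell. Kcnh3 encodes an ELK channel of forebrain neurons that is open near the resting voltage and restrains firing. Its values were 8.81, 8.90, 8.79 and 8.58 in wild-type and 7.99, 8.17, 7.85 and 8.07 in R6/2 mice. The groups were well apart, with means of 8.77 ± 0.14 and 8.02 ± 0.13 (SD, n = 4 each) and a 1.68-fold fall (adjusted p = 0.000901). Kcnh5, an EAG channel gene, went from 3.87, 3.80, 3.78 and 3.72 to 3.31, 3.48, 3.41 and 3.34 (adjusted p = 0.00455). Every R6/2 value lay below the Y-linked level of 3.67 and the wild-type values lay just above it, so the difference is given only as at least 1.08-fold lower, and all 8 values lay below 5.37, the highest of all Y-linked probe sets, against which no fold can be given. Kcnh1, Kcnh2, Kcnh7 and Kcnh8 did not pass, with differences from -0.18 to 0.072.

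KCNQ channels carry the M-current, a slow current that limits repetitive firing and is closed by muscarinic receptors, and 2 of 3 measured genes fell. Kcnq5 had values of 9.38, 8.87, 9.33 and 8.82 in wild-type and of 8.47, 8.31, 8.45 and 8.37 in R6/2 mice. The wild-type mice split into a higher and a lower pair, all above the R6/2 mice, and the difference was -0.70 ± 0.13 (adjusted p = 0.00609). Kcnq3, the partner of other KCNQ subunits in the neuronal M-channel, went from 10.54, 10.44, 10.39 and 10.21 to 9.96, 9.73, 9.75 and 9.82. Every R6/2 mouse was below every wild-type mouse, a 1.49-fold fall (-0.58 ± 0.089, adjusted p = 0.00242). Kcnq1, best known from the heart and inner ear, differed by -0.15 ± 0.12 and did not pass (adjusted p = 0.430).

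Sodium- and calcium-activated channels follow the ions that enter during firing. Kcnt1, the gene of the sodium-activated channel Slack, had values of 9.40, 9.34, 9.36 and 9.11 in wild-type and of 8.66, 8.59, 8.75 and 8.73 in R6/2 mice. The spread within the R6/2 mice was 0.071 (SD) against a difference of -0.63 ± 0.083 (adjusted p = 0.00116). The related genes Kcnt2 (0.0033 ± 0.14, 95% interval from -0.31 to 0.31) and Kcnu1 did not pass. Kcnma1, the pore of the large-conductance calcium-activated (BK) channel, differed by -0.11 ± 0.12 (adjusted p = 0.590), Kcnmb4, the neuronal BK beta subunit, by -0.27 ± 0.12 (adjusted p = 0.161), and the small-conductance channel genes Kcnn1 and Kcnn2 by -0.38 ± 0.15 and -0.29 ± 0.14 (adjusted p = 0.113 and 0.201). Without wild-type mouse 54, whose Kcnn1 value of 5.19 lay below the other wild-type mice (5.73 to 5.93), Kcnn1 differed by -0.55 (adjusted p = 0.00695), and with the cortical level as a covariate by -0.099 (adjusted p = 0.785).

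Inward rectifiers gave 1 call among 15 genes, near the 6.19% of all genes that were called lower. Kcnj4 encodes Kir2.3, one of the strong inward rectifiers that hold medium spiny neurons at a negative resting voltage. Its values were 8.08, 8.46, 8.55 and 8.22 in wild-type and 7.71, 7.46, 7.70 and 7.68 in R6/2 mice. The highest R6/2 mouse was below the lowest wild-type mouse, and the difference was -0.69 ± 0.11 (1.62-fold, adjusted p = 0.00287). Kcnj2, for the related channel Kir2.1, lay at the Y-linked level in both groups. The G protein-gated (GIRK) genes Kcnj3, Kcnj6 and Kcnj9 did not pass, with 0.17 ± 0.22, -0.27 ± 0.086 and -0.42 ± 0.73. Kcnj10, the Kir4.1 channel of astrocytes, lay between 8.49 and 9.54 in the wild-type and between 8.34 and 9.30 in the R6/2 group and did not pass (-0.16 ± 0.25, adjusted p = 0.712). Of 15 astrocyte markers 7 were called lower and none higher, against 6.19% and 9.09% of all genes. The subunits of the ATP-sensitive channel, Kcnj11 and Kcnj8, differed by -0.10 ± 0.090 and -0.048 ± 0.14 and did not pass.

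All 12 genes for 2-pore channels (Kcnk) had a lower mean in R6/2 mice, against 50.7% of all genes, and none passed. Kcnk2, the mechanically and lipid-gated channel TREK-1, differed most, with values of 9.96, 9.63, 9.56 and 9.11 against 9.30, 9.15, 8.77 and 8.97. The groups overlapped through wild-type mouse 63, and the difference of -0.52 ± 0.17 had an adjusted p of 0.0626, or -0.67 and 0.0133 without that mouse. Kcnk1 (TWIK-1) went from 10.33, 10.19, 10.04 and 10.15 to 9.87, 9.95, 10.00 and 9.80, with groups that were separate by a narrow margin (-0.27 ± 0.083, adjusted p = 0.0535). The remaining 10 genes differed by -0.28 to -0.040. The shared direction did not hold throughout: with array weights 10 of the 12 were below 0, and with the cortical level as a covariate 8 were. Without wild-type mouse 54 Kcnk1 was called (adjusted p = 0.0421).

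The Kv3 genes (Kcnc), typical of fast-spiking interneurons, did not pass. Kcnc4 had values of 7.44, 7.37, 6.52 and 7.39 in wild-type and of 7.23, 6.20, 6.61 and 6.68 in R6/2 mice. Wild-type mouse 54 was low and R6/2 mouse 64 high within their groups, and those same mice were the lowest wild-type and the highest R6/2 mouse in the cortical marker list. The difference of -0.50 ± 0.24 (adjusted p = 0.190) became -0.72 once wild-type mouse 54 was left out (adjusted p = 0.0398), while the cortical covariate turned it to 0.13 (adjusted p = 0.667). Kcnc1 differed by -0.26 ± 0.14 (adjusted p = 0.241). Kcnc2 lay between 6.22 and 8.01 in the wild-type and between 6.11 and 7.25 in the R6/2 group and differed by -0.24 ± 0.34, or by 0.17 with the covariate, so that 2 of the 3 Kcnc genes then lay above 0. The list of 15 measured markers of cholinergic and other interneurons is not one of fast-spiking cells alone. Its mean level was 6.41 to 6.68 in wild-type and 5.98 to 6.28 in R6/2 mice. Of its genes 6 were called lower (Sst, Npy, Nos1, Vip, Crhbp and Cox6a2) and none higher, against 6.19% and 9.09% of all genes. Pvalb differed by -0.22 ± 0.45 and did not pass (adjusted p = 0.791). The part of these cells in the Kcnc differences was not tested.

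The single-span Kcne subunits gave no call among 5 genes, and Kcne4 and Kcne1l differed by -0.015 ± 0.073 and 0.0063 ± 0.11. The members with the largest differences upwards, Kcnj13 and Kcne2, are expressed in the epithelium of the choroid plexus and were named after their values were seen. Kcnj13 had values of 6.93, 7.60, 4.98 and 9.03 in wild-type and of 5.22, 9.56, 8.92 and 8.76 in R6/2 mice. It was lowest in wild-type mouse 54 and R6/2 mouse 64, the mice with the lowest ependyma and choroid plexus list (5.81 and 5.74), and its difference of 0.98 ± 0.97 did not pass (adjusted p = 0.552). Kcne2 lay at 7.22 in R6/2 mouse 70 and between 3.19 and 4.25 in the other mice. It did not follow that list: R6/2 mouse 65, with the highest list level (7.58), had a Kcne2 value of 3.57. The part of choroid plexus tissue in the differences of Kcnj13 and Kcne2 was not tested. The 3 noncoding members (Kcnmb4os1, Kcnmb4os2 and Kcnq1ot1) differed by -0.10 to 0.11 and did not pass.

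**Figure D4:**
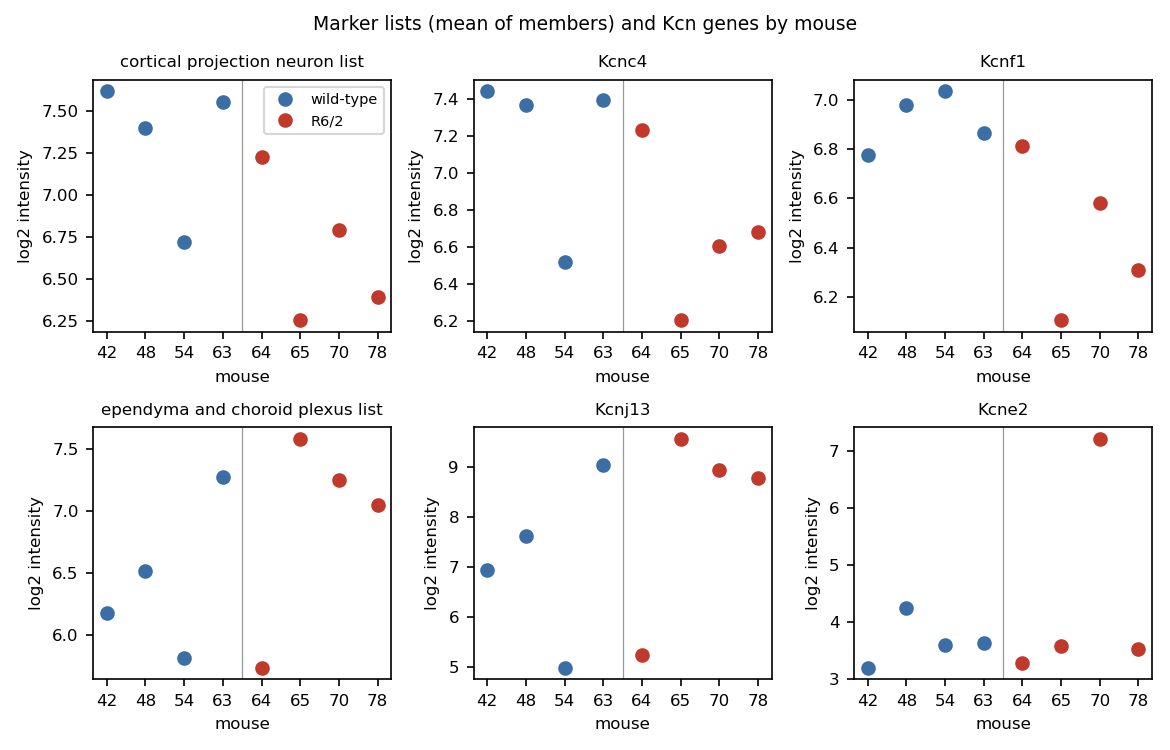
Mean log2 intensity (y axes, not from 0) of 17 cortical projection neuron markers and of 14 ependyma and choroid plexus markers, and log2 intensity of Kcnc4, Kcnf1, Kcnj13 and Kcne2, in each mouse (x axis, wild-type in blue, R6/2 in red). Kcnc4 and the cortical list are low in wild-type mouse 54, and Kcnj13 and the choroid list are low in wild-type mouse 54 and R6/2 mouse 64. Kcnf1 has the order of the cortical list among the R6/2 mice. Among the wild-type mice it is highest in mouse 54 and lowest in mouse 42, where that list is lowest and highest. Kcne2 is high only in R6/2 mouse 70 and does not follow the choroid list.

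Probe sets of 1 gene read different parts of its transcripts, and 46 of the 84 genes had more than 1. Tested over all probe sets, 26 of the 167 Kcn probe sets were called lower and none higher, against 4.59% lower and 5.54% higher of all probe sets. In 13 genes some probe sets were called and others not, and 2 of these 13, Kcna2 and Kcnh3, also had probe sets on both sides of 0. Over all members, 10 genes had probe sets on both sides of 0. None of the 24 other probe sets of the 16 genes that fell was called higher, 9 were called lower and 21 were below 0. In the test over all probe sets the brightest probe sets of Kcna1, Kcna2, Kcna6, Kcnab2 and Kcnf1 were not called (adjusted p from 0.0507 to 0.0650). The second probe set of Kcnab2 was at 0.16 ± 0.22 and that of Kcnf1 at -0.034 ± 0.11, neither called, and the other probe sets of Kcnip4 were at 0.19 and 0.29 against -0.15.

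Kcnma1 had 2 probe sets called lower and 3 not called: beside its brightest probe set (-0.11) and another at -0.21, other probe sets fell by 0.64 ± 0.10 (adjusted p = 0.00414) and 0.48 ± 0.12 (adjusted p = 0.0349), and the last, at -0.80 ± 0.34, did not pass. Kcnd2 likewise had other probe sets that fell, by 0.49 ± 0.11 and 0.28 ± 0.075 (adjusted p = 0.0183 and 0.0402). Both other probe sets of Kcnv1 fell, by 0.52 ± 0.12 and 0.41 ± 0.11 (adjusted p = 0.0237 and 0.0484). These 3 genes were counted as not called by the rule on the highest mean.

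All 3 probe sets of Kcnt1 and both of Kcnq3 were called lower. A further probe set of Kcnh3 fell by 0.78 ± 0.095, while its others were at -0.37 (adjusted p = 0.0561) and 0.037. The other Kcnq5 probe sets were at -0.57 (called) and -1.66 ± 0.90 (not called). Other probe sets of Kcnip2 moved less, at -0.53 ± 0.33 (adjusted p = 0.364) and, at a mean of 4.81, -0.029, as did the second probe sets of Kcnab1 (-0.17 ± 0.21), Kcnip3 (-0.061 ± 0.13) and Kcna4 (-0.30 ± 0.13), none of which passed. The second probe set of Kcns2 was at -0.49 ± 0.16 (adjusted p = 0.0808). Other probe sets of Kcna1 fell by 0.34 and 0.45, of Kcna2 by 0.35 and of Kcna6 by 0.51, with adjusted p from 0.00342 to 0.0260, and their dimmest probe sets did not pass.

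**Figure D5:**
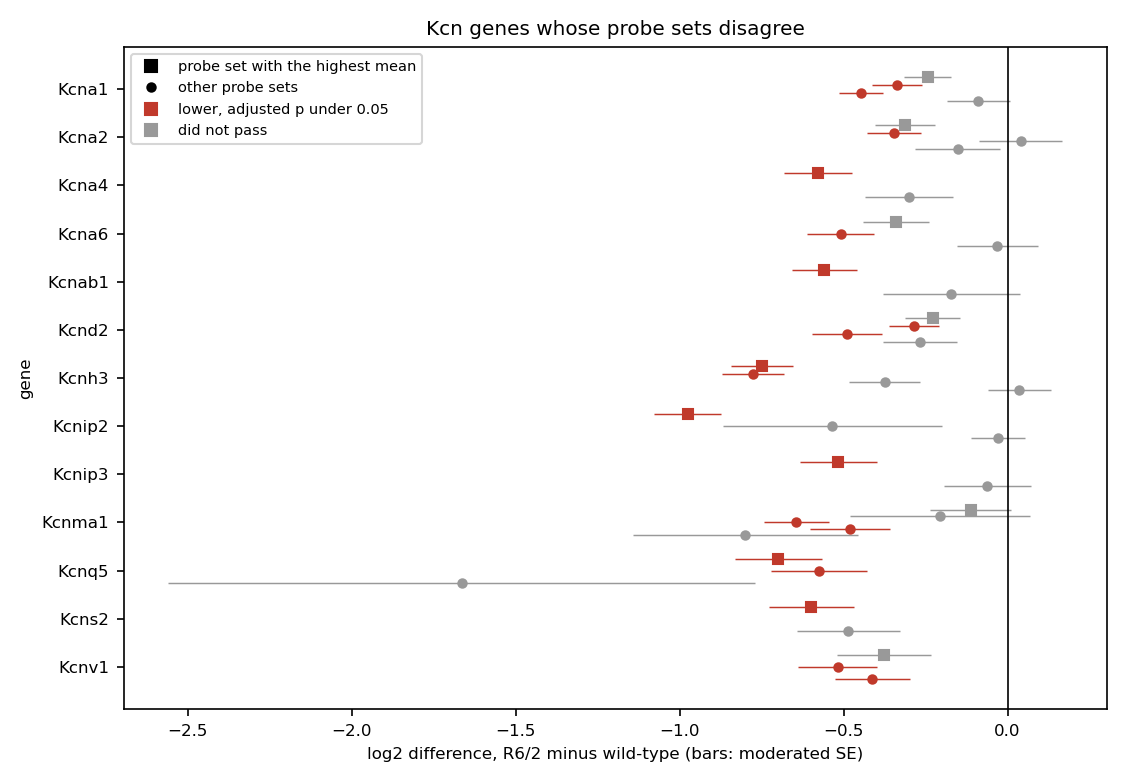
Log2 difference (x axis, with the moderated standard error as a bar) of every probe set of the 13 Kcn genes whose probe sets disagree (y axis), with the probe set of highest mean as a square and the others as circles, red where called lower over all probe sets. Kcna1, Kcna2, Kcna6, Kcnd2, Kcnma1 and Kcnv1 have red circles beside a grey square.

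Genes whose products assemble with or regulate these channels were taken from lists drawn up by their known role, with earlier results known. Of 7 measured regulators of GIRK channels 5 fell: the regulator of G protein signalling Rgs9 (-1.29 ± 0.094), its membrane anchor Rgs7bp (-0.66 ± 0.088), the orphan receptor Gpr158 (-0.70 ± 0.16), the G protein beta subunit Gnb5 (-0.37 ± 0.10) and Rgs7 (-0.29 ± 0.083), with adjusted p from 5.04e-05 to 0.0396 and a median of -0.37 over the list. Rgs9 is itself a marker of medium spiny neurons. Among 4 measured regulators of KCNQ and small-conductance channels the anchoring protein gene Akap5 fell (-0.62 ± 0.14, adjusted p = 0.0140), and the muscarinic receptor gene Chrm1, whose product closes M-channels, differed by -0.38 ± 0.12 and did not pass (adjusted p = 0.0621). Of 8 partners of Kv1 channels only the scaffold gene Dlg2 was called (-0.44 ± 0.10, adjusted p = 0.0163), and the list's median was -0.057.

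Partners of the other families moved in both directions. Dpp6, the Kv4 auxiliary subunit that speeds gating, rose by 0.42 ± 0.084 (adjusted p = 0.00806), while Dpp10 differed by -0.22 ± 0.20 and did not pass. Hcn3, a channel gene of the hyperpolarisation-activated family, rose by 0.35 ± 0.094 (adjusted p = 0.0311), and Hcn2 and Pex5l did not pass. Lingo1, a BK channel partner, fell by 0.50 ± 0.12 (adjusted p = 0.0206), as did Abcc8, the sulfonylurea receptor of neuronal ATP-sensitive channels (-0.58 ± 0.14, adjusted p = 0.0226), and none of 4 measured Kv2 partners passed. Over these 8 lists together, 9 of 34 genes were lower and 2 higher, against 6.19% and 9.09% of all genes. Because the lists were chosen with earlier results of these data known, these counts are a description and were not tested.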

How the data were processed

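Striatal RNA of 8 mice was hybridised to 1 Affymetrix array each, and the deposited values are log2 expression per probe set, made by the authors with RMA (affy), per the submitters' processing notes. Versions and settings are not given in the sources used here. Of 45101 probe sets, 64 controls were left out, and 34945 of the rest had 1 gene symbol in the platform annotation, 932 several and 9160 no entry. Each of 18193 genes was represented by its probe set with the highest mean over the 8 arrays. All 84 Kcn genes matched RefSeq (GRCm38.p6) by Entrez ID.

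R6/2 was compared with wild-type in 1 limma fit (3.58.1, R 4.3.3; lmFit, eBayes) over all genes, with Benjamini-Hochberg adjustment and a threshold of 0.05. The ± after a difference is its moderated SE. Mice were numbered separately, and p-values measure the spread between them. No label states a batch, and precision is limited by having 4 arrays per group. On simulated data with 200 of 18193 genes changed, the fit called 58.8% of those changed by 0.5 on the log2 scale and 94.0% of those changed by 1. The fit to the real data called 2781 genes, so these shares need not hold for it.

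The rule for named genes took every Kcn gene that passed, the 2 members of each subfamily with the highest mean, genes with disagreeing probe sets, and pathway genes that passed. Other members were named to complete a subfamily. The members and lists were chosen with earlier results of these data known, and the Y-linked genes of the background level after their values were seen. Alternatives covered normalization, centring, a filter on the dimmest 40% of genes, the choice of probe sets, moderation, array weights, the cortical marker level as a covariate and leaving out each mouse. Figures were drawn with matplotlib 3.10.9.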

Additional observations from a re-analysis of the deposited data

Results flagged for a closer look

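In 66 groups of 4 mice (33 named genes, 2 groups each), 6 mice lay far from the other 3 of their group by Dixon's criterion at the 95% level, which chance alone passes in about 5% of groups. Kcnc4 was at 6.517 in wild-type mouse 54 against 7.367 to 7.441 in the others. Kcnd2 was at 10.16 in wild-type mouse 63 against 10.41 to 10.45. Kcns2 was at 8.39 in the same mouse against 8.931 to 8.994. Kcnj4 was at 7.461 in R6/2 mouse 65 against 7.676 to 7.71. Kcnma1 was at 7.255 in R6/2 mouse 70 against 7.588 to 7.63. Kcne4 was at 5.234 in R6/2 mouse 70 against 5.06 in the others, whose values were identical; 5 of the 8 arrays held that value.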

How the results depend on the processing

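No Kcn gene was called higher in any alternative run, and between 9 and 19 were called lower. The count of 16 fell to 9 without moderation and to 9 with the cortical level as a covariate, in fits that called 1399 and 1256 of all genes against 2781, and ranged from 11 to 16 when 1 mouse was left out (all genes 1679 to 2545, lowest without R6/2 mouse 70 and at 1698 without wild-type mouse 48; Kcn genes called higher 0 to 0). The covariate takes 1 of 6 residual degrees of freedom and raised the median SE over all genes to 0.123 from 0.0932. Of the 16 genes, 11 were called whichever mouse was left out, and Kcnip2, Kcnh3, Kcnj4, Kcnt1, Kcnq3, Kcna4 and Kcnh5 in every alternative that tested them (Kcnh5 was too dim for the filtered fit). Kcna1, Kcna2, Kcna6, Kcnab2 and Kcnf1 were not called with median centring, over all probe sets or with the covariate. The median Kcn difference was -0.245 without the dimmest genes, which leaves 50 members, and ranged from -0.161 to -0.120 when 1 mouse was left out. Kcnq5, Kcns2 and Kcnip3 were not called without moderation (adjusted p = 0.0504, 0.0700 and 0.0713). With the covariate 13 of the 84 differences changed sign, none of them called, among them Kcnj9 (0.56), Kcnc2 (0.17), Kcnq1ot1 (-0.15) and Kcna3 (-0.029). Over the 33 genes of the naming rule, 497 values kept their side of the threshold, 61 lost and 16 gained a call, and 18 changed sign, all of genes that did not pass: Kcnc4 0.127, Kcnj10 0.0754 and Kcne4 0.0353 with the covariate; Kcne4 0.00355 and Kcnt2 -0.00766 with quantile normalization; Kcne4 0.0213 and Kcne1l -0.0025 with array weights; Kcnip4 0.110 with the mean of its probe sets. With 1 mouse left out, differences ran from -0.0780 to 0.0803 for Kcne1l, with -0.00292 without wild-type mouse 54 and -0.0445 without 42, from -0.0582 to 0.00725 for Kcne4, with 0.00188 without wild-type mouse 42, from -0.340 to 0.00988 for Kcnj10, with 0.00550 without R6/2 mouse 65, and from -0.122 to 0.115 for Kcnt2, with -0.0507 and -0.0337 without R6/2 mice 64 and 65. The cause of these changes was not tested. No paired analysis was possible because the groups share no mouse numbers. Dim probe sets limit what can be called.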
